A study of Homo sapiens with 8 samples.

Results

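The genes described here make and balance the building blocks of DNA, with the steps that feed thymidine into it. They are the 9 rows of the deposited gene table, out of 13471, whose gene name is RRM1, RRM2, TYMS, TK1, DUT, DTYMK, DCTD, DCK or SAMHD1, and all 9 were found. The study sequenced RNA that came down with hnRNP U, a nuclear protein that binds RNA and DNA and is also called SAF-A, in hTERT-RPE1, a human cell line derived from retinal pigment epithelium and kept dividing by telomerase. The 8 libraries fell into 4 groups of 2: interphase without immunoprecipitation (IP), interphase with an IP by an antibody against hnRNP U, mitosis without IP, and mitosis with that IP. All 4 groups had been held in 2 mM thymidine for 24 h. Interphase cells were taken from that block, and mitotic cells were released for 6 h and left overnight with STLC, which blocks the motor protein Eg5 and so stops cells in mitosis. Excess thymidine is itself a substrate of this pathway and stalls replication by unbalancing the deoxynucleotide pools, so no group shows these genes in cells that never met it. No control-antibody IP was analysed here, and RNA held by hnRNP U and RNA left on the beads cannot be told apart.

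Ribonucleotide reductase, a complex of the large subunit RRM1 and the small subunit RRM2, turns ribonucleoside diphosphates into their deoxy forms and sets the pace of deoxynucleotide supply. Thymidylate reaches DNA by a de novo route, in which DCTD and DUT supply dUMP and TYMS methylates it, and by a salvage route, in which TK1 phosphorylates thymidine; both routes meet at DTYMK, which makes the diphosphate. DCK salvages deoxycytidine and the purine deoxynucleosides, and SAMHD1 breaks deoxynucleoside triphosphates down again.

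The values are FPKM (fragments counted on a gene, divided by its transcript length and by the library's mapped total), which puts different genes on a common scale. The IP effect still moved with transcript length and GC content, and some genes share reads with others. Orders and ratios of genes below therefore compare FPKM values and need not give the relative abundance of the RNAs. Replicates of a group correlated across genes at a Pearson's r of 0.989 to 0.995. How many fragments each library held is unknown, and steps among the lowest values put the relative depth between 0.637 and 1.189 of the first interphase library without IP. The 10 genes with the highest values held 58.4% to 63.0% of the FPKM sum without IP and 12.4% to 20.6% in the IP, and the part of this shift in the results below was not tested beyond the other scalings that are named beside them. Of 9 markers of retinal pigment epithelium, RPE65, RLBP1, BEST1, TTR, TYR and SERPINF1 had no row in the table, PMEL lay at or below 0.144 FPKM in each library, and MITF and OTX2 were present. Of the G2/M phase markers, 10 of 10 were called higher in mitosis without IP, beside 26.2% of all genes. They summed to 980 to 1059 FPKM in mitosis against 252 to 260 in interphase. The G1/S markers summed to 113 to 133 FPKM in mitosis against 230 to 272 in interphase. Of these, 7 of 9 were called lower, beside 25.5% of all genes. Of keratins 3 of 4 had a row (sums of 47.9 to 138 FPKM), of mesenchymal markers 3 of 3 (801 to 2408 FPKM), and of markers of other cells of the eye 0 of 5. The mesenchymal sum was nearly all VIM and FN1, and COL1A1 lay at or below 1.44 FPKM in each library. Nothing in the labels says that the 2 libraries of a group came from separate cultures, so the p-values measure only the spread between these libraries.

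Differences below are on the log2(FPKM + 1) scale, with 95% intervals and adjusted p-values from limma fitted over all 13471 genes, and a gene is called at an adjusted p below 0.05. The IP effect is the log2 level in the IP minus that without IP. The RNAs split into a group higher in the IP in both states (RRM1, RRM2, DCK and SAMHD1, joined in mitosis by TYMS), a group lower in both (TK1, DTYMK and DUT), and DCTD, which was called in neither. Over the whole principal transcript the most depleted RNAs, DTYMK and TK1, were the most GC-rich of the 9. DCK, with the highest IP effect in interphase, was the least. To show that composition, the last 90 coding bases of the principal transcripts of these 3 and of RRM1 are printed from GENCODE 29, with G and C in capitals.
DTYMK: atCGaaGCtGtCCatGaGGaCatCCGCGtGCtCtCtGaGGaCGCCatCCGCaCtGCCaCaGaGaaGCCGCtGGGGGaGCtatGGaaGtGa
TK1: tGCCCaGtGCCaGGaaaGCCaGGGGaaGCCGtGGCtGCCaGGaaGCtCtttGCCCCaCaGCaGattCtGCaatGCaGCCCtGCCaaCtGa
RRM1: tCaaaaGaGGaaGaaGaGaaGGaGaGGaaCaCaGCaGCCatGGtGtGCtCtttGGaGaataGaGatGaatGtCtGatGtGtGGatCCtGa
DCK: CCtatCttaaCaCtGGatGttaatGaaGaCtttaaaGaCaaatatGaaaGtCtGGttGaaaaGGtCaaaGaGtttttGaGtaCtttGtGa
G and C make up 60.0% of this stretch in DTYMK, 61.1% in TK1, 45.6% in RRM1 and 32.2% in DCK. Over the whole principal transcript the figures are 59.7%, 61.6%, 43.0% and 38.8%. DCTD stood at 53.1%, TYMS at 49.8%, SAMHD1 at 46.0%, DUT at 44.2% and RRM2 at 42.6%. In the whole coding sequence DUT, called lower in the IP, stood at 59.2%, above DTYMK at 58.1%. The 90-base stretch held 41.1% in DUT, 41.1% in DCTD, 42.2% in RRM2, 45.6% in SAMHD1 and 36.7% in TYMS, so it need not show the composition of the rest.

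**Figure D1:**
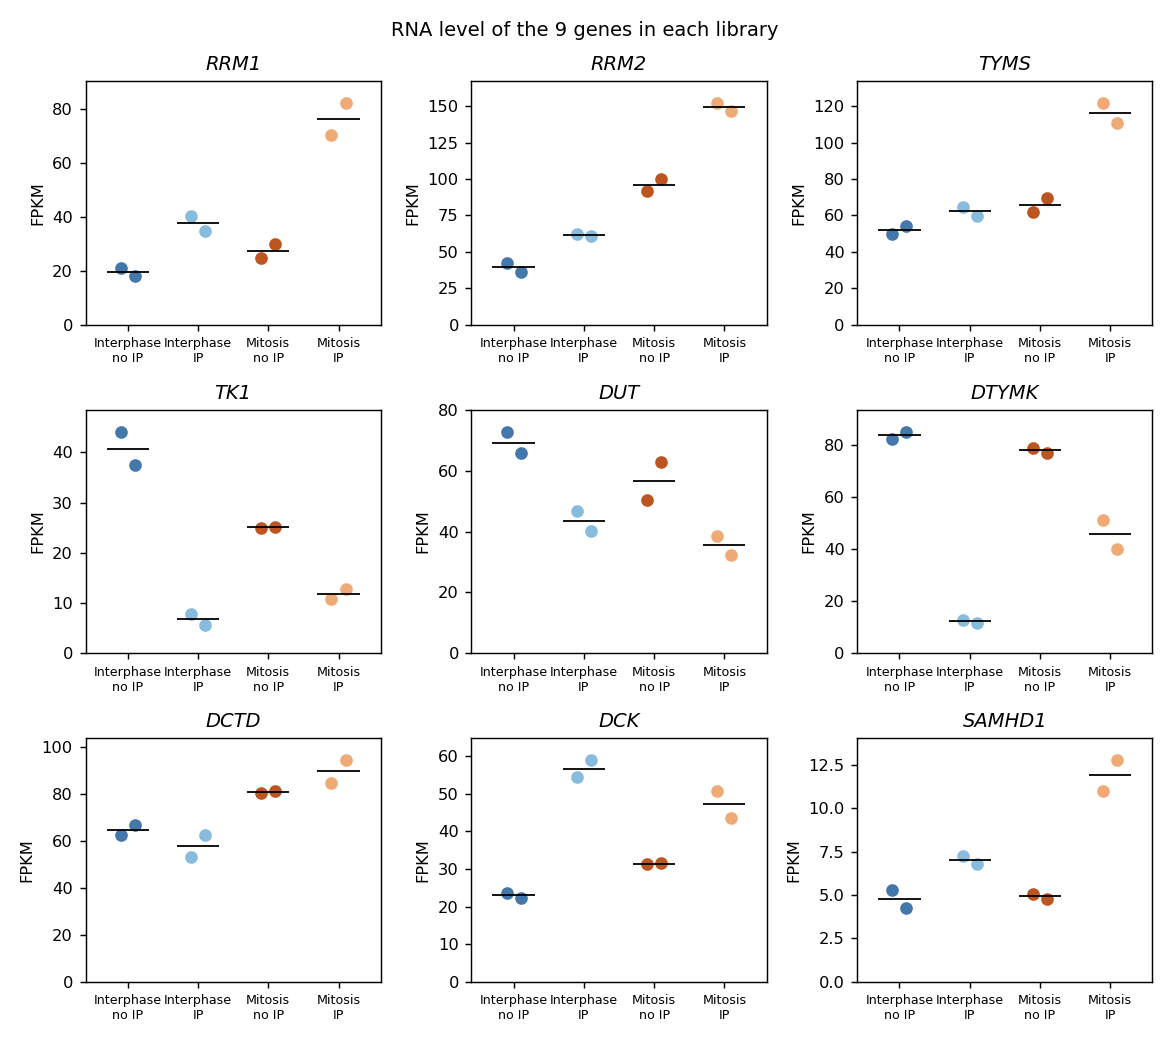
FPKM (linear axis from 0, a separate scale for each gene) of the 9 genes in each of the 8 libraries; points are libraries and the line is the mean of the 2 libraries of a group. TK1 and DTYMK drop in the interphase IP to 5.71 to 12.9 FPKM, while RRM1, RRM2 and TYMS are highest in the mitotic IP.

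In interphase without IP the order of mean levels ran from DTYMK at 83.9 FPKM through DUT, DCTD, TYMS, TK1, RRM2, DCK and RRM1 to SAMHD1 at 4.76 FPKM. DUT and DCTD overlapped in this order, as did TK1 and RRM2. In the interphase IP the order was rearranged: TYMS, RRM2, DCTD and DCK led, each overlapping its neighbour, DTYMK came seventh, and SAMHD1 and TK1 shared the end. In mitosis without IP RRM2 led at 95.9 FPKM, ahead of DCTD and DTYMK, and RRM1 overlapped TK1 near the lower end. RRM2 led again in the mitotic IP at 149 FPKM, followed by TYMS and DCTD, and SAMHD1 and TK1 again shared the end at 11.9 and 11.8 FPKM.

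RRM1, the large reductase subunit, is transcribed from chromosome 11, 4094707 to 4138876 on the plus strand of GRCh38, with RRM1-AS1 on the other strand. It stood at 20.9 and 18.2 FPKM in interphase without IP, 40.4 and 34.8 in the interphase IP, 24.8 and 30.0 in mitosis without IP, and 70.6 and 82.2 in the mitotic IP. The mitotic IP libraries were the highest, the interphase libraries without IP were the lowest, and the groups compared did not overlap. Its IP effect was 0.91 ± 0.14 (SE, n = 2 a group, adjusted p = 0.000262) in interphase and 1.45 ± 0.14 (adjusted p = 2.99e-05) in mitosis. Among all genes the mitotic effect of RRM1 lay at percentile 96.5. The effect was larger in mitosis by 0.54 (95% interval 0.10 to 0.98, adjusted p = 0.0463), a call close to the threshold. It was lost without any of 5 libraries (adjusted p 0.0556 to 0.154: interphase without IP 1 and 2, interphase IP 2, mitosis without IP 1, mitotic IP 2) and with quantile normalization (0.39, adjusted p = 0.155), median centring (adjusted p = 0.0543), a pseudocount of 0.1 (adjusted p = 0.0535) or eBayes without trend (adjusted p = 0.0549). RRM1 rose in mitosis in the IP by 1.00 (adjusted p = 0.000239). Without IP, RRM1 was higher in mitosis by 0.46 (adjusted p = 0.0197), and this call was lost without the second interphase library (0.37, adjusted p = 0.125) or the second mitotic one (0.33, adjusted p = 0.132) and with quantile normalization (0.39, adjusted p = 0.0555).

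RRM2, the small subunit, lies on chromosome 2, 10120698 to 10131419 on the plus strand, overlaps AC007240.1 on the same strand, and has 3 numbered pseudogenes, none with a row of its own, so reads that fit several copies make its level uncertain. It stood at 42.5 and 36.3 FPKM in interphase without IP, 61.9 and 61.2 in the interphase IP, 91.8 and 100.03 in mitosis without IP, and 152 and 147 in the mitotic IP. Each step in this order was upward without overlap. RRM2 rose in mitosis by 1.27 ± 0.11 (adjusted p = 6.14e-05) without IP and by 1.27 (adjusted p = 2.21e-05) in the IP, the largest rise of the 9 genes without IP and at percentile 96.7 of all genes. Its IP effect was 0.64 in interphase (adjusted p = 0.000734) and 0.64 in mitosis (adjusted p = 0.00101). The 2 effects differed by -0.0007 with an interval of -0.36 to 0.36 (adjusted p = 0.998), so a difference of up to about that size between the states is compatible with these libraries. The bulk libraries average over cells, so a larger share of cells with the RNA and more RNA per cell cannot be told apart.

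The level of RRM2 relative to RRM1, in FPKM, sets the reductase messages side by side in each library. The ratio was 2.03 and 1.99 in interphase without IP and 3.70 and 3.34 in mitosis without IP. In the IP it was 1.53 and 1.76 in interphase and 2.15 and 1.79 in mitosis. Both mitotic libraries without IP therefore stood above the other 6, and in both states the ratio was lower in the IP than without it.

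The 250 bases before the most downstream RefSeq start site of RRM2, which rose most in mitosis, and of TK1, which fell, are printed from the GRCh38.p14 promoter table, each on the strand of its gene, and that of DTYMK, called neither way without IP, is set beside them. They were searched on both strands for the CCAAT box (CCAAT, which reads ATTGG on the other strand), for the CHR element of cell cycle genes (TTTGAA or TTCGAA), and for E2F site words (TTTCCCGC, TTTGGCGC, TTTGCCGC or TTTCGCGC); capitals mark the matches. RRM2 is at chr2:10122489-10122738 on the plus strand, TK1 at chr17:78187053-78187302 and DTYMK at chr2:241686816-241687065, both on the minus strand.
RRM2: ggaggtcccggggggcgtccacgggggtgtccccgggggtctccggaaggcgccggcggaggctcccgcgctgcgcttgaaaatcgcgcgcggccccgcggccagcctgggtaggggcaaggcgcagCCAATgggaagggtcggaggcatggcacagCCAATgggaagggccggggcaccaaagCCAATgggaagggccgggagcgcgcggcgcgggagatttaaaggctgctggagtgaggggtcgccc
TK1: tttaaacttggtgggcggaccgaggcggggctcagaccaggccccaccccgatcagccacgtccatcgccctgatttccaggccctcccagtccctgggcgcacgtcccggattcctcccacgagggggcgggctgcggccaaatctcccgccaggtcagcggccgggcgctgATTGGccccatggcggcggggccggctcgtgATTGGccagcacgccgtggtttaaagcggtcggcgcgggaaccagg
DTYMK: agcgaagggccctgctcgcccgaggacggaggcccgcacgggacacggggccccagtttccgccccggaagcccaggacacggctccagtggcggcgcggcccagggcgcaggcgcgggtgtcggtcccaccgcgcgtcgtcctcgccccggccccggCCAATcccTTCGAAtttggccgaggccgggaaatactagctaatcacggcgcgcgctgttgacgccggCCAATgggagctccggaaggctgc
RRM2 holds 3 CCAAT words, TK1 holds 2 and DTYMK holds 2 with 1 CHR word, and no E2F word lies in these stretches. These windows were chosen after the matches were seen: the other window of RRM2 holds 1 CCAAT word and that of TK1 none. Over the RefSeq windows that run 250 bases before to 50 after a start, the CCAAT word was in 6 of the 15 windows of the 9 genes (those of DTYMK, RRM1, RRM2, SAMHD1 and TK1), against 34.6% of 35114 windows. A CHR word was in 3 of the 15 (DTYMK, DUT and RRM1), against 16.4% of windows, and an E2F word in 3 of the 15 (DCK, DUT and TYMS), against 3.3%. Windows of 1 gene can overlap, and a match describes letters and not binding.

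TYMS, thymidylate synthase, makes dTMP from dUMP and is the target of fluoropyrimidine drugs. The gene is on chromosome 18, 657604 to 673578 on the plus strand; the file gives it an interval of 115665 bases that ENOSF1 and TYMSOS, both on the other strand, share. The counting is not stated to use strand, so reads of these genes cannot be told apart from those of TYMS. It stood at 49.7 and 54.3 FPKM in interphase without IP, 64.9 and 60.0 in the interphase IP, 61.8 and 69.6 in mitosis without IP, and 122 and 111 in the mitotic IP. The mitotic IP stood far above the rest, and the other 6 libraries lay between 49.7 and 69.6 FPKM. In mitosis the IP effect was 0.81 ± 0.11 (adjusted p = 0.00025). In interphase it was 0.26 (interval 0.0014 to 0.52, adjusted p = 0.0644) and not called, though it was called with libraries centred on their medians (0.38, adjusted p = 0.015) and with quantile normalization (0.29, adjusted p = 0.0444). The effect was larger in mitosis by 0.55 (interval 0.19 to 0.92, adjusted p = 0.0205). That call was lost with quantile normalization (adjusted p = 0.0972) and without any of 4 libraries (adjusted p 0.0535 to 0.0812: interphase without IP 2, interphase IP 2, mitosis without IP 1, mitotic IP 1). In the IP, TYMS rose in mitosis by 0.88 (adjusted p = 0.000171). Without IP, TYMS was higher in mitosis by 0.33 (adjusted p = 0.0366), lost when any of the 4 libraries compared was left out (adjusted p 0.053 to 0.206) and with median centring (adjusted p = 0.103).

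DUT, which cleaves dUTP to dUMP and so keeps uracil out of DNA, and DCTD, which deaminates dCMP to dUMP, feed the TYMS reaction. DUT (chromosome 15, 48331011 to 48343373, plus strand, with AC023355.1 on the other strand and 8 numbered pseudogenes that have no row) stood at 72.9 and 65.8 FPKM in interphase without IP, 46.8 and 40.2 in the interphase IP, 50.6 and 62.8 in mitosis without IP, and 38.7 and 32.3 in the mitotic IP. Both IP groups were below the libraries without IP of the same state. Its IP effect was -0.66 ± 0.14 in interphase (adjusted p = 0.0026) and -0.66 in mitosis (adjusted p = 0.00349), with a difference of 0.01 (interval -0.46 to 0.47, adjusted p = 0.986). Between states it differed by -0.29 both without IP (adjusted p = 0.121) and in the IP (adjusted p = 0.115), neither called; in the IP it was called lower in mitosis with median centring (-0.40, adjusted p = 0.0375) and with quantile normalization (-0.52, adjusted p = 0.0148).

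DCTD (chromosome 4, 182890060 to 182917936, minus strand) stood at 62.2 and 66.6 FPKM in interphase without IP, 53.0 and 62.6 in the interphase IP, 80.4 and 81.3 in mitosis without IP, and 84.6 and 94.2 in the mitotic IP. The interphase groups with and without IP overlapped, and all 4 mitotic libraries stood above all 4 interphase ones. For DCTD the IP effect was -0.16 (interval -0.43 to 0.11, adjusted p = 0.246) in interphase and 0.14 (interval -0.12 to 0.41, adjusted p = 0.315) in mitosis. DCTD rose in mitosis by 0.62 (adjusted p = 0.00156) in the IP. Without IP the rise was 0.32 (adjusted p = 0.0451), and no longer called when any of the 4 libraries compared was left out (adjusted p 0.0964 to 0.201) or with median centring (adjusted p = 0.13).

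TK1, the cytosolic thymidine kinase whose level follows the cell cycle, is on chromosome 17, 78174075 to 78187233, on the minus strand. It stood at 44.1 and 37.4 FPKM in interphase without IP, 7.78 and 5.71 in the interphase IP, 24.9 and 25.2 in mitosis without IP, and 10.9 and 12.7 in the mitotic IP. Every IP library was below every library without IP, and the 2 states took opposite orders: interphase was higher without IP and lower in the IP. For TK1 the IP effect was -2.44 ± 0.15 (adjusted p = 1.32e-06) in interphase, where the mean in the IP was 0.166 of that without IP, and -1.03 (adjusted p = 0.000306) in mitosis, where it was 0.471. Among all genes these effects lay at percentiles 3.7 and 12.1. The difference between them was 1.41 (interval 0.93 to 1.89, adjusted p = 0.000841). In mitosis TK1 fell by 0.68 (adjusted p = 0.00529) without IP and rose by 0.73 (adjusted p = 0.00245) in the IP. Among all genes, TK1 went from percentile 87.9 of the levels in interphase without IP to percentile 52.5 in the interphase IP.

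DCK, the deoxycytidine kinase of the other salvage arm, is on chromosome 4, 70992538 to 71030914, on the plus strand, overlapping the annotated extent of MOB1B on the same strand. It stood at 23.6 and 22.3 FPKM in interphase without IP, 54.4 and 58.9 in the interphase IP, 31.4 and 31.5 in mitosis without IP, and 50.6 and 43.7 in the mitotic IP. The IP libraries were above those without IP in both states, and the gap was wider in interphase. DCK had an IP effect of 1.26 ± 0.10 (adjusted p = 6.41e-06) in interphase and 0.57 (adjusted p = 0.0013) in mitosis, a difference of -0.70 (interval -1.03 to -0.36, adjusted p = 0.0049), the only called fall of the IP effect among the 9 genes. Without IP, DCK rose in mitosis by 0.43 (adjusted p = 0.00811), lost without the second interphase library (0.40, adjusted p = 0.0579). In the IP the difference was -0.26 (adjusted p = 0.0554), not called, though called lower without the first mitotic IP library (-0.37, adjusted p = 0.0316), with median centring (-0.37, adjusted p = 0.0144) and with quantile normalization (-0.52, adjusted p = 0.00175).

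The 2 salvage kinases moved apart in the IP. The ratio of DCK to TK1 was 0.536 and 0.598 in interphase without IP and 6.99 and 10.3 in the interphase IP. In mitosis it was 1.26 and 1.25 without IP and 4.66 and 3.43 in the IP. TK1 was thus above DCK in FPKM only in interphase without IP. The ratio of TYMS to TK1, the de novo over the salvage entry of thymidylate, was 1.13 and 1.45 in interphase without IP, 8.33 and 10.5 in the interphase IP, 2.48 and 2.76 in mitosis without IP, and 11.2 and 8.68 in the mitotic IP.

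DTYMK, thymidylate kinase, acts where the de novo and salvage routes join. The gene is on chromosome 2, 241675742 to 241686991, on the minus strand. It stood at 82.6 and 85.3 FPKM in interphase without IP, 12.9 and 11.7 in the interphase IP, 79.1 and 77.3 in mitosis without IP, and 51.3 and 40.3 in the mitotic IP. The interphase IP stood alone at the bottom, and the states were close together without IP. The IP effect was -2.68 ± 0.12 (adjusted p = 4.35e-07) in interphase, at percentile 2.7 of all genes, and -0.77 (adjusted p = 0.00058) in mitosis, at percentile 18.5. The difference, 1.91 (interval 1.51 to 2.30, adjusted p = 9.58e-05), was the largest of the 9 genes and lay at percentile 98.4. In the IP, DTYMK rose in mitosis by 1.80 (adjusted p = 5.79e-06), from a mean of 12.3 ± 0.842 FPKM to 45.8 ± 7.75 FPKM (SD, n = 2). Without IP the states differed by -0.10 (interval -0.38 to 0.18, adjusted p = 0.524).

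SAMHD1, the triphosphohydrolase that lowers deoxynucleotide pools, had the lowest level of the 9 in libraries without IP. It is on chromosome 20, 36889773 to 36951901, on the minus strand, and the file gives it the same interval as TLDC2, so the 2 genes' reads are uncertain. It stood at 5.26 and 4.25 FPKM in interphase without IP, 7.25 and 6.77 in the interphase IP, 5.09 and 4.76 in mitosis without IP, and 11.0 and 12.8 in the mitotic IP. The groups without IP overlapped, and both IP groups lay above them. The IP effect was 0.48 ± 0.13 (adjusted p = 0.00868) in interphase, lost without the second interphase library without IP (0.35, adjusted p = 0.0785), and 1.12 (adjusted p = 9.35e-05) in mitosis. It was larger in mitosis by 0.64 (interval 0.22 to 1.06, adjusted p = 0.0209), lost without any of 4 libraries (adjusted p 0.0577 to 0.0848: interphase without IP 1, interphase IP 2, mitosis without IP 2, mitotic IP 2). SAMHD1 rose in mitosis in the IP by 0.69 (adjusted p = 0.00177) and differed by 0.05 (interval -0.25 to 0.35, adjusted p = 0.793) without IP. RRM2 over SAMHD1, a supply message over a removal message, was 8.06 and 8.53 in interphase without IP and 18.0 and 21.0 in mitosis without IP. In the IP it was 8.55 and 9.04 in interphase and 13.8 and 11.5 in mitosis.

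**Figure D2:**
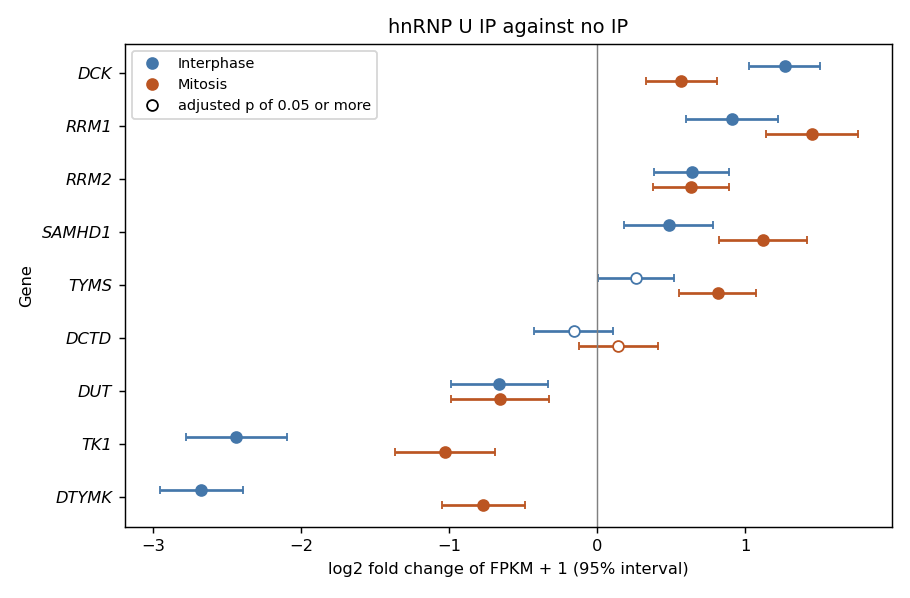
IP effect (log2 fold change of FPKM + 1, x axis) of each gene in interphase and in mitosis; bars are 95% intervals from limma and open points have an adjusted p of 0.05 or more. DTYMK and TK1 lie at -2.68 and -2.44 in interphase and at -0.77 and -1.03 in mitosis, while RRM1, SAMHD1 and TYMS lie farther right in mitosis.

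In interphase 4 of the 9 genes were called higher in the IP and 3 lower, when 74.6% of all genes were called (37.6% higher and 37.0% lower). In mitosis 5 were called higher and 3 lower, against 64.5% of all genes (32.8% higher and 31.7% lower). A called member is therefore common in this table, and the sizes carry more than the counts. The median IP effect over the 9 genes was 0.26 in interphase and 0.57 in mitosis, beside 0.02 and 0.01 over all genes. The plot of IP effects shows the range behind the interphase median, from -2.68 for DTYMK to 1.26 for DCK. The SD over all genes was 1.17 in interphase and 0.85 in mitosis, so IP effects were smaller over the whole table in mitosis.

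Mitosis minus interphase, the IP effect was called higher for RRM1, TYMS, TK1, DTYMK and SAMHD1 and lower for DCK. Of all genes 47.1% were called (27.2% higher and 19.9% lower). For RRM2, DUT and DCTD no difference was called. TK1 and DTYMK moved toward 0 from far below it, whereas RRM1, TYMS and SAMHD1 moved farther above it. Without the second interphase IP library only the calls of TK1, DTYMK and DCK were left. That fit leaves no replicate in its group, and fewer genes of the whole table were called too.

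**Figure D3:**
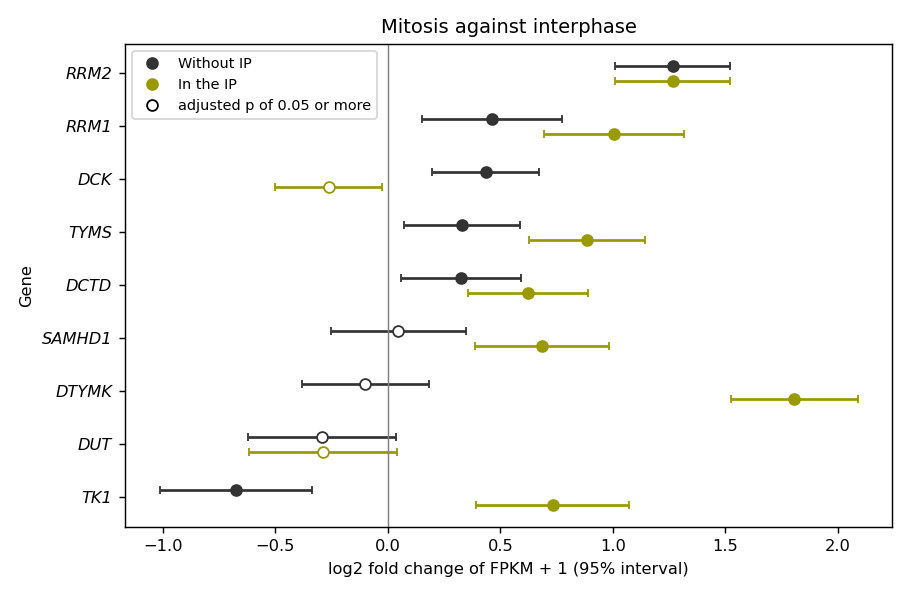
Mitosis minus interphase (log2 fold change of FPKM + 1, x axis) of each gene without IP and in the IP; bars are 95% intervals from limma and open points have an adjusted p of 0.05 or more. RRM2 has the same value, 1.27, in both, DTYMK is at -0.10 without IP and 1.80 in the IP, and TK1 changes sign from -0.68 to 0.73.

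Without IP, RRM1, RRM2, TYMS, DCTD and DCK were higher in mitosis and TK1 was lower, against 51.7% of all genes called (26.2% higher and 25.5% lower). Without the second interphase library only the calls of RRM2 and TK1 were left, and without the second mitotic one those of RRM2, TK1 and DCK. Such a fit leaves no replicate in the group that lost a library, and the count over all genes changed with the library left out. In the IP, 7 of the 9 were higher in mitosis and none lower, against 61.4% called (35.8% higher and 25.6% lower); DUT and DCK were not called. The median difference over the 9 genes was 0.32 without IP and 0.73 in the IP, beside -0.0023 and 0.08 over all genes. Each comparison of states shares its libraries with the IP effects, so these values are not separate evidence of one pattern. Members and cell cycle markers moved between the same libraries. Without IP, the sum of G1/S markers was lower in mitosis, as TK1 alone of the called members was. The sum of G2/M markers was higher, as were RRM1, RRM2, TYMS, DCTD and DCK. In the IP the G1/S markers summed to 171 to 186 FPKM in interphase and 98.7 to 127 FPKM in mitosis, where TK1 rose. Of these 9 markers 6 were called lower in mitosis in the IP, and 2, E2F1 (0.54) and CDT1 (0.61), were called higher, as TK1 was. The G2/M markers summed to 359 to 361 FPKM in the interphase IP and 1161 to 1371 FPKM in the mitotic IP. Of these 10 markers 9 were called higher in mitosis in the IP, and CENPF (-0.28) was not called. A large part of the rise in the sum was AURKA, with means of 41.9 FPKM in the interphase IP and 444 FPKM in the mitotic IP. The part of the cell cycle position in each member's change was not tested.

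The IP effect also moved with transcript length and GC content across all genes. A smooth trend over length and GC content, taken from each gene's longest transcript and fitted to all matched genes, had values of -1.89 for DTYMK and -1.75 for TK1 in interphase and -0.83 and -0.78 in mitosis. The longest transcripts of DTYMK and TK1 are short, 1232 and 1681 nt, and at percentiles 86.3 and 93.5 of GC content. For DCK, at percentile 11.8 of GC content, the trend was 0.57 in interphase and 0.51 in mitosis.

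**Figure D4:**
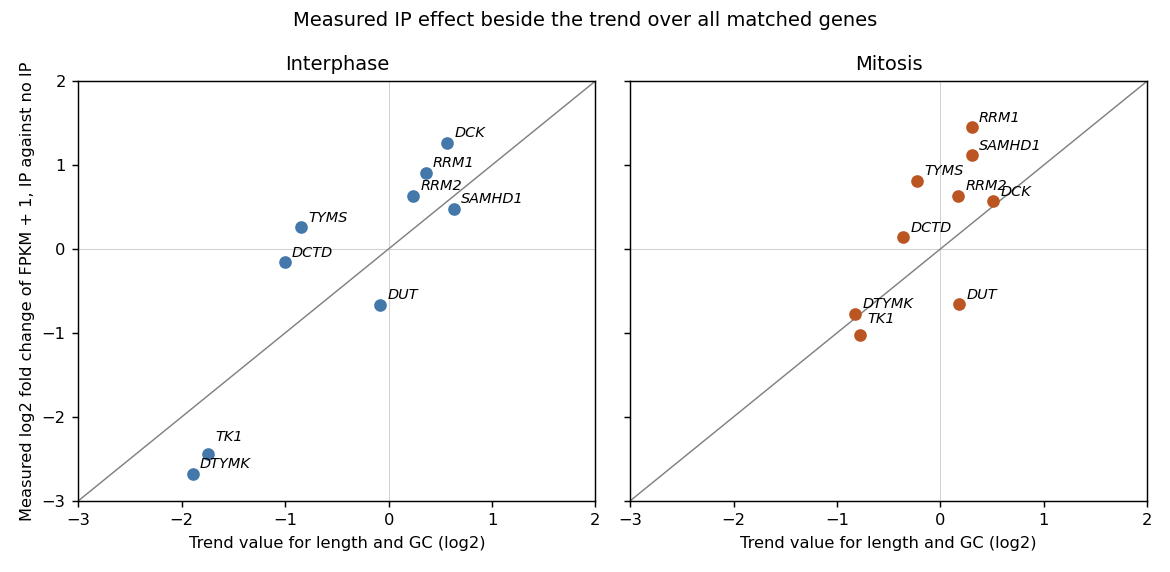
Measured IP effect (y axis, log2 fold change of FPKM + 1) of the 9 genes against the value of the trend with length and GC content over all matched genes (x axis, log2), in interphase and in mitosis; the grey diagonal marks equality. DTYMK and TK1 lie lowest on both axes in interphase, and TYMS, DCTD and RRM1 lie above the diagonal in both panels.

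With the trend removed, DTYMK stayed lower in the interphase IP by -0.78 (adjusted p = 0.000221) and TK1 by -0.69 (adjusted p = 0.0017), while in mitosis DTYMK was at 0.06 (adjusted p = 0.66) and TK1 at -0.25 (adjusted p = 0.131), neither called. The difference between states was then 0.84 for DTYMK (adjusted p = 0.00239) and 0.44 for TK1 (adjusted p = 0.0874), and TK1 was no longer called between states without IP (-0.16, adjusted p = 0.344) or in the IP (0.28, adjusted p = 0.0894). DTYMK was called higher in mitosis without IP (0.47, adjusted p = 0.00573).

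With the trend removed, the IP effects of TYMS and DCTD moved up in both states and those of RRM1, RRM2, DCK and SAMHD1 moved down. TYMS was then higher in the interphase IP by 1.11 (adjusted p = 3.53e-05) and its difference between states was -0.07 (adjusted p = 0.745). DCTD was higher in the IP by 0.85 (adjusted p = 0.000237) in interphase and 0.50 (adjusted p = 0.00458) in mitosis, and its rise in mitosis in the IP was 0.24 (adjusted p = 0.0934). RRM1 stayed higher in both states, by 0.55 (adjusted p = 0.00522) and 1.14 (adjusted p = 9.01e-05), as did RRM2, by 0.40 (adjusted p = 0.00937) and 0.46 (adjusted p = 0.00436). DCK kept its interphase call at 0.70 (adjusted p = 0.00043) and stood at 0.06 (adjusted p = 0.672) in mitosis; in the IP it was called lower in mitosis (-0.32, adjusted p = 0.0267), as was DUT (-0.42, adjusted p = 0.0316). SAMHD1 was at -0.15 (adjusted p = 0.336) in interphase and at 0.81 (adjusted p = 0.000533) in mitosis. Whether length and GC content act on binding, on recovery or on counting was not tested.

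Around these 9 genes, 73 of 80 listed symbols of nucleotide metabolism genes had a row. CDA, CMPK2, AK4, SLC29A3 and TYMP were among those not matched, and ADSS2 is a newer symbol of ADSS, which is listed too and has a row. In interphase 27 of the 73 were called higher and 35 lower in the IP, against 37.6% and 37.0% of all genes, with a median of -0.14. In mitosis 34 were higher and 22 lower, against 32.8% and 31.7% of all genes, with a median of 0.15. The difference of the IP effect, mitosis minus interphase, was called above 0 for 40 and below 0 for 5, against 27.2% and 19.9% of all genes. The 30 genes of deoxynucleotide salvage, repair and transport had a median IP effect of -1.07 in interphase (7 higher, 19 lower) and -0.17 in mitosis (10 higher, 13 lower), beside 0.02 and 0.01 over all genes, with the same shares of all genes called as above. For the 11 genes of nucleoside and nucleotide breakdown the medians were -1.03 (5 higher, 6 lower) and 0.05 (5 higher, 3 lower). The 12 genes of the folate cycle had medians of -0.03 (5 higher, 5 lower) and 0.41 (7 higher, 2 lower). For the 5 pyrimidine synthesis genes they were 0.01 (2 higher, 1 lower) and 0.36 (3 higher, 1 lower), and for the 15 purine synthesis genes 0.35 (8 higher, 4 lower) and 0.55 (9 higher, 3 lower).

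**Figure D5:**
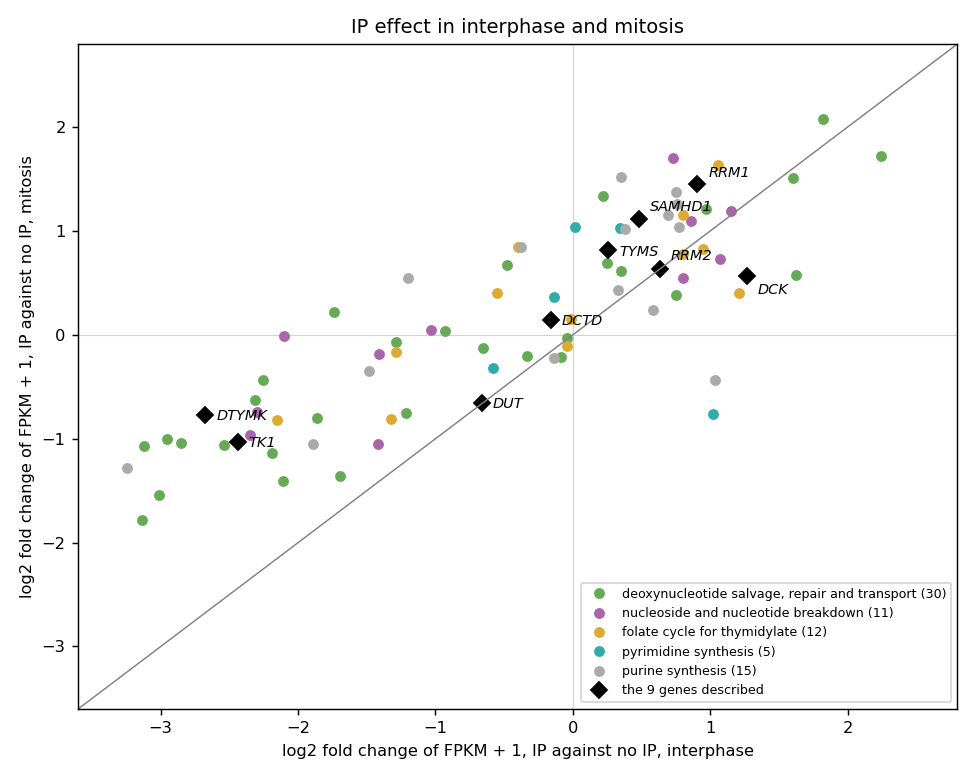
IP effect in interphase (x axis) and in mitosis (y axis), as log2 fold change of FPKM + 1, for the 9 genes (diamonds) and 73 other genes of nucleotide metabolism (circles, coloured by list, with the number in each); the grey diagonal marks equal effects. Genes far to the left, DTYMK and TK1 among them, lie above the diagonal.

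RRM2B, the reductase small subunit that answers p53, had a higher IP effect than RRM2, 1.82 ± 0.11 (adjusted p = 1.2e-06) in interphase and 2.08 (adjusted p = 6.4e-06) in mitosis. Its level was 12.5 and 13.0 FPKM in interphase without IP and 44.2 and 51.1 in the IP, and without IP it differed between states by -0.22 (adjusted p = 0.117), whereas RRM2 rose. The mitochondrial deoxynucleoside kinases were lower in the interphase IP, as TK1 was. DGUOK, for purine deoxynucleosides, had IP effects of -2.31 (adjusted p = 5.29e-07) and -0.63 (adjusted p = 0.00111), and TK2, for thymidine and deoxycytidine, of -0.93 (adjusted p = 5.68e-05) and 0.03 (adjusted p = 0.806). Without IP both fell in mitosis, DGUOK by 0.63 (adjusted p = 0.00192) and TK2 by 0.73 (adjusted p = 0.000836).

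SLC29A1, the transporter that brings thymidine into cells, had an IP effect of -2.11 (adjusted p = 3.08e-06) in interphase and -1.41 (adjusted p = 6.18e-05) in mitosis and fell in mitosis by 1.05 (adjusted p = 0.000691) without IP.

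The largest called IP effects in interphase among the listed genes were those of SLC25A36, a mitochondrial pyrimidine nucleotide carrier (2.24), RRM2B and CMPK1, the UMP and CMP kinase (1.63), and, downward, of APRT (-3.24), GUK1, the guanylate kinase (-3.14), and DNPH1 (-3.12). In mitosis they were those of RRM2B, SLC25A36 (1.73) and DERA (1.70), and downward of GUK1 (-1.78), NUDT1, which removes oxidized purine triphosphates (-1.54), and SLC29A1. Mitosis minus interphase, the IP effect differed by 2.09 for UPP1, 2.06 for DNPH1 and 1.96 for DCTPP1, a pyrimidine triphosphatase, beside 1.91 for DTYMK. In interphase these RNAs were lower in the IP than without it, and that depletion was smaller or absent in mitosis. The difference was -1.78 for CAD, the first enzyme of pyrimidine synthesis, -1.47 for PFAS and -1.05 for CMPK1, beside -0.70 for DCK. Between states without IP the largest were PNP (1.58), PFAS (0.96) and DPYD (0.85) upward and NME3 (-1.48), SHMT2 (-1.21) and DNPH1 (-1.20) downward. In the IP they were PNP (1.95), PRPS1 (1.88) and DCTPP1 (1.86), and CMPK1 (-1.30), AK5 (-1.09) and CAD (-1.03). Each of these was called by limma, with adjusted p-values up to 0.00686.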

How the data were processed

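RNA from hTERT-RPE1 cells was sequenced in 8 libraries, 2 in each of 4 groups taken from the sample titles. The authors deposited FPKM values, with a column for each library, and ratio columns, each 1 FPKM column divided by another with the same number, per the file headers; recomputed ratios matched within 0.1%. Directional libraries were prepared after ribosomal RNA was removed, per the labels' protocols. The IP was made from a detergent lysate cleared by spinning, per the labels' protocols, which do not say if the libraries without IP came from it. TopHat and StringTie are named, with no version or role, per the submitters' processing notes; how reads shared by several genes were counted is not given in the sources used here. The gene table is on build hg38, and its genes were matched to GENCODE 29 (GRCh38) by symbol (12665) or by an older symbol (467), which left 339 unmatched. No value in the table is 0. All its measurement columns were mapped to samples, and the table of lncRNAs was not used here.

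limma 3.58.1 in R 4.3.3 (lmFit, eBayes with trend) was fitted to log2(FPKM + 1) of all 13471 genes and 8 libraries, with 4 group coefficients, 4 residual degrees of freedom and no replicate block, and the Benjamini-Hochberg adjustment was made separately in each of 5 comparisons. The procedure was run on simulated data with known changes, where noise was independent between libraries and few genes changed. These libraries differ from that setting, so the run checks the procedure and not the calls made here. All 9 genes pass a mean of at least 1 FPKM, as do 11271 genes in all. The log2(FPKM + 1) scale understates changes of low genes. Depth per library is unknown beyond the relative steps, so no interval for counting error is given.

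The 9 genes, the pathway lists and the markers were chosen with earlier results of these data known. Other pathway genes are named by a rule: the 3 largest called changes in each direction of a comparison whose same-numbered replicates share the sign, with RRM2B, TK2, DGUOK and SLC29A1, which do steps next to those of the 9 genes; 1 further gene of the rule is not reported here. Alternatives were a pseudocount of 0.1, a filter at a mean of 1 FPKM, median centring, quantile normalization, removal of length and GC trends (natural splines with 5 degrees of freedom each), eBayes without trend, only the groups compared, a replicate block, and each library left out.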

Additional observations from a re-analysis of the deposited data

Results flagged for a closer look

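For 6 of the 9 genes the effect of the IP differed between interphase and mitosis by the test of that difference in limma. The difference, mitosis minus interphase on the log2(FPKM + 1) scale, was 1.91 for DTYMK (adjusted p = 9.58e-05), 1.41 for TK1 (adjusted p = 0.000841), 0.64 for SAMHD1 (adjusted p = 0.0209), 0.55 for TYMS (adjusted p = 0.0205), 0.54 for RRM1 (adjusted p = 0.0463) and -0.70 for DCK (adjusted p = 0.0049). Both same-numbered pairs of libraries had the sign of the difference for each of the 6, but the calls come from these same libraries, so this adds no support. With 47.1% of all genes called in this comparison, such a difference is common in these data. With length and GC trends removed the difference was -0.07 for TYMS and 0.44 for TK1, neither called. It was then 0.84 for DTYMK, 0.96 for SAMHD1, 0.59 for RRM1 and -0.64 for DCK. The calls of RRM1, TYMS and SAMHD1 were each lost without some single libraries, and those of RRM1 and TYMS also with quantile normalization. Groups of 2 libraries were too small to look for a library that stands apart within a group.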

How the results depend on the processing

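Over 16 other settings, 638 of 711 recomputed log2 fold changes of the 9 genes kept their direction and their side of the threshold, 39 lost their call, 12 gained one and 22 changed sign. The count of the 9 genes called stayed within 1.5 times except in 3 cases. It was 3 in place of 6 for the difference of the IP effect without the second interphase IP library. For mitosis against interphase without IP it was 2 in place of 6 without the second interphase library and 3 without the second mitotic one. Leaving out single libraries gave 6 to 7 for the IP in interphase, 8 for the IP in mitosis, 3 to 6 for the difference, 2 to 6 between states without IP and 7 to 8 between states in the IP. With length and GC trends removed the sign changed for the IP effect in interphase of DCTD (0.85) and SAMHD1 (-0.15), the IP effect in mitosis of DTYMK (0.057), the difference of effects of RRM2 (0.062), TYMS (-0.069), DUT (-0.26) and DCTD (-0.35), and mitosis without IP of DTYMK (0.47) and SAMHD1 (-0.12). Median centring changed the sign for DUT in the difference (-0.024) and SAMHD1 in mitosis without IP (-0.033), and quantile normalization for DCTD in the IP in mitosis (-0.046) and DUT in the difference (-0.25). Of these values before the change, those of RRM2 and DUT in the difference lay within 0.01 of 0. Leaving out single libraries moved them over -0.11 to 0.11 for RRM2 and -0.15 to 0.16 for DUT, and SAMHD1 in mitosis without IP over -0.081 to 0.17. The cause of these changes was not tested. Median centring moved the median of all genes by 0.12 for the IP in interphase and by -0.11 between states in the IP. The replicate numbers were not shown to pair the libraries: deviations of same-numbered libraries correlated across genes at 0.088 to 0.528. Fitting a replicate block, which leaves 3 residual degrees of freedom, changed 1 call among the 9 genes, DCK between states in the IP (-0.26, adjusted p = 0.0499). Total depth is unknown, so counting error could not be set apart from the other spread between libraries.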

Other observations

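Some of the 9 genes followed nearly the same pattern over the 8 libraries and others an opposite one. TK1 and DTYMK had a Pearson's r of 0.904 on the log2(FPKM + 1) scale, RRM1 and SAMHD1 of 0.969, and RRM1 and TYMS of 0.931. TK1 and DCK, the cytosolic salvage kinases, had an r of -0.987. RRM1 and RRM2, subunits of the same enzyme, had an r of 0.832. The 8 points are 4 groups of 2 libraries and all genes of a library share its depth and scaling, so these values are descriptions with no test.

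Among 8023 genes with a mean of at least 5 FPKM, the one whose pattern was most like that of RRM1 was HIGD1A (r = 0.998), a mitochondrial protein gene. That of RRM2 was NCAPG (r = 0.997), a condensin subunit, which had means of 14.9 FPKM in interphase and 65.1 FPKM in mitosis without IP and 32.4 and 160 FPKM in the IP. TYMS was nearest to ZNF343 (r = 0.992), TK1 to FLYWCH1 (r = 0.998), DUT to FZD2 (r = 0.973), DCTD to DESI1 (r = 0.986), DCK to ATXN7 (r = 0.998) and SAMHD1 to ANKRD44 (r = 0.991). DTYMK was nearest to TMED9 (r = 0.999), a secretory pathway gene with means of 79.6 and 76.9 FPKM without IP and 21.1 and 52.2 FPKM in the IP in interphase and mitosis. The second gene for RRM1 was PPAT (r = 0.996), the first enzyme of purine synthesis, at 6.86 and 8.74 FPKM without IP and 12.3 and 22.3 FPKM in the IP. Second for the others were PGM2 for RRM2 (r = 0.997), MRPS25 for TYMS (0.986), ETHE1 for TK1 (0.9965) and RXRA for DUT (0.972). They were DYNLT1 for DTYMK (0.997), SLC35F2 for DCTD (0.969), C8orf88 for DCK (0.997) and UBR7 for SAMHD1 (0.990). Of the nearest genes named here only PPAT was on the lists of nucleotide metabolism.

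The 9 genes together summed to 390 and 404 FPKM in the interphase libraries without IP and to 342 and 349 FPKM in the interphase IP. In mitosis they summed to 450 and 482 FPKM without IP and to 576 and 591 FPKM in the IP. The sum in the IP was thus below that without IP in interphase and above it in mitosis, with no overlap in either state. The members did not move together. The means of TK1, DTYMK and DUT were lower in the IP in both states, and that of DCTD in interphase, while the rest were higher. Median centring moved the median of all genes by 0.12 for the IP in interphase, and the sum was not recomputed with it. No test was run on this sum.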
